A study of Homo sapiens with 3 samples.

Results

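The HOX cluster genes are the 39 genes of the count table whose name is HOX, a cluster letter from A to D and a number, out of 26485 genes. They were taken by name alone, with no measured value, and comprise 11 HOXA, 10 HOXB, 9 HOXC and 9 HOXD genes. The study sequenced total RNA from HEC1B, a long-established line of human endometrial cancer, in 3 stranded libraries taken 48 h into an siRNA treatment. The siNC library is the control, with a wild-type genotype label, and siPRMT6-1 and siPRMT6-2 carry siRNAs against PRMT6 and the genotype label PRMT6 knockdown. Each siRNA was measured in 1 library, and nothing in the labels says whether the cultures were separate, so a p-value here measures only the spread between these libraries.

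HOX genes encode homeodomain transcription factors that set positional identity along the body axis. Their order within each cluster follows the order of their expression from head to tail, low numbers anterior and high numbers posterior. In the female reproductive tract the posterior HOXA genes are laid out along the Müllerian duct, and HOXA10 in the uterus is required for embryo implantation. Polycomb complexes keep silent HOX genes off and trithorax complexes, which methylate a lysine of histone H3, keep active ones on. PRMT6 is an arginine methyltransferase whose mark on a neighbouring arginine of histone H3 counteracts that lysine methylation. The comparison therefore asks whether lowering PRMT6 changes the HOX repertoire of these cells.

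The HOX counts did not differ between the libraries beyond counting error, in the sum or in any whole cluster. The 39 genes had 268, 255 and 237 counts in the order siNC, siPRMT6-1, siPRMT6-2, which every set of 3 values follows here. Scaled by depth (library sizes after TMM normalization), the HOX sum stood at a ratio to siNC of 0.990 for siPRMT6-1 (0.831 to 1.18) and of 1.03 for siPRMT6-2 (0.864 to 1.24), with 95% exact binomial intervals in parentheses. All intervals here cover counting error only, and compare libraries, not conditions. HOXA10 and HOXB2 held 47.0% of the HOX counts, and the HOXC and HOXD clusters were near 0 in every library. Fewer cells with a transcript and less of it per cell cannot be told apart in such bulk RNA.

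The libraries held 362080 to 410916 counts, so a HOX gene with 3 counts, the one-sided limit that a count of 0 allows, stands at 7.77 to 9.09 CPM, the counts scaled to a common library size. PRMT6 itself had 25, 4 and 7 counts, 0.167 of siNC with siPRMT6-1 (0.0421 to 0.482) and 0.327 with siPRMT6-2 (0.119 to 0.778), and was not called (edgeR quasi-likelihood, adjusted p = 1.00). The siPRMT6-2 library stands apart by its interferon response: 12 interferon-stimulated genes, chosen because earlier results of these data showed them, had 108, 171 and 1736 counts. Values without that library are therefore those of siPRMT6-1 alone, and ratios are given for each siRNA; the part of the interferon response in the HOX counts was not tested. Of 11 markers of endometrial carcinoma epithelium, KRT8 had 1329, 681 and 770 counts and PAX8 158, 117 and 227, while KRT19, CDH1 and the progesterone receptor gene PGR had 0 in all 3 libraries and the oestrogen receptor gene ESR1 had at most 1. KRT18 had 129, 85 and 95. The 11 markers summed to 1628, 890 and 1108 counts. Depth-scaled, that sum was lower in both knockdown libraries: siPRMT6-1 held 0.569 of the siNC level (0.524 to 0.618) and siPRMT6-2 held 0.796 (0.736 to 0.859). KRT8 made up most of it, at 0.533 (0.49 to 0.59) and 0.677 (0.619 to 0.741). For KRT18 the values were 0.686 (0.515 to 0.909) and 0.861 (0.653 to 1.13). PAX8 went the other way in siPRMT6-2, at 1.68. Of these markers 3 were tested and 0 called by edgeR. The 5 leukocyte markers summed to 17, 19 and 57, nearly all from CD68 (17, 19 and 56), which with siPRMT6-2 was 3.85 times siNC (2.20 to 7.07), while PTPRC and CD3E were at 0. The 6 fibroblast and stroma markers summed to 540, 366 and 375, nearly all from COL1A1, with PDGFRB at 16, 6 and 2 and with DCN, LUM and COL3A1 at 0. The 5 endothelial markers summed to 26, 27 and 15, of which PECAM1 had 19, 16 and 5, 0.308 times siNC with siPRMT6-2 (0.0898 to 0.852), and CLDN5 7, 9 and 9, with CDH5 and KDR at 0. The part of other cell types in the HOX counts was not tested.

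Strand limits what a HOX count stands for. The library kit keeps the strand, the fragments were counted with the strand setting 1 of featureCounts, and VIM-AS1 had 12493 counts in siNC against 312 for VIM, the highly expressed gene it overlaps. HOX genes lie back to back with RNA genes on the other strand, and in the deposited gene models the exons of 11 of the 39 members overlap those of such a gene. These 11 held 58.7% of the HOX counts. Whether a HOX-named count comes from the HOX messenger RNA or from RNA of the other strand cannot be told from gene totals. Nor does a count at or near 0 show that a gene is off: the interferon-stimulated gene MX1 had 0 counts in siPRMT6-2, where its list had 1736. Gene names here stand for the fragments assigned to a gene in the deposited table.

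The 6 members HOXA10, HOXB2, HOXA3, HOXB3, HOXA4 and HOXB4 had enough counts for the test and held 81.2% of the HOX counts. The test was edgeR's quasi-likelihood F-test of both PRMT6 knockdown libraries against siNC, fitted over 6803 genes. It called 0 of the 6 members in either direction at an adjusted p under 0.05, and 0 of 6 at an unadjusted p under 0.05. The background was 0% of all genes called higher and 0% called lower, with 2.03% higher and 0.706% lower at the unadjusted level. DESeq2 and the older quasi-likelihood fit of edgeR also called 0 members, and 0 at an unadjusted p under 0.05. Over all genes edgeR called 0 with 186 at an unadjusted p under 0.05, DESeq2 called 0 with 13, and the older fit called 32, none of them a HOX gene. Log2 fold changes ranged from -0.29 for HOXA3 to 0.85 for HOXB4, with standard errors of 0.45 to 0.85. HOXB4 had enough counts for the test through siPRMT6-1 alone, its high library. The fold changes of the 6 members had a median of 0.0085, beside 0.036 over all 6803 genes. With single siRNAs the medians were 0.011 for siPRMT6-1 and 0.067 for siPRMT6-2, as differences of log2 CPM (prior count 2), against 0.0064 and 0.0067 for all genes.

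HOXA10, the uterine identity gene, was the most counted member, at like levels in the 3 libraries. Located on chromosome 7 at 27170591 to 27180261 on the minus strand of hg38, it had 65, 61 and 58 counts. Depth-scaled, these are 168, 164 and 176 CPM, so the 3 libraries overlap within their counting intervals. Relative to siNC the level was 0.977 with siPRMT6-1 (0.677 to 1.41) and 1.04 with siPRMT6-2 (0.719 to 1.51). A 2-fold difference in assigned counts between these libraries lies outside both intervals, which cover counting error only. The intervals do not exclude a 2-fold change between conditions for HOXA10. Its log2 fold change was 0.014 with an SE of 0.45 and an adjusted p of 1.00 in the quasi-likelihood test.

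The posterior HOXA genes on either side of HOXA10 were almost empty. HOXA9 had 0, 1 and 4 counts. HOXA11, which also patterns the uterus and its stroma, had 1 count in each library, and HOXA13, which patterns the distal tract and limb, had 0 in all 3. HOXA9 shares 1494 exon bases on its own strand with the readthrough gene HOXA10-HOXA9 (3, 1 and 4 counts), and HOXA10 shares 616, and a fragment in such bases was added to both genes. By assigned counts HOXA10 thus stood apart among the posterior HOXA genes. It had 20.4 counts per kilobase of exon in siNC, against 0.377 for HOXA11 and 0 for HOXA9. HOXA10 shares 608 exon bases with HOXA10-AS on the other strand, and counts near 0 do not show that its neighbours are off.

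Promoter sequences are shown for HOXA10 and for HOXA13, the most counted member and a neighbour with 0 counts in all libraries. They are RefSeq sequences of GRCh38.p14, from 250 bases before to 50 after a transcript start, on the minus strand. HOXA10 has 2 starts, at chr7:27179812-27180111 and chr7:27174271-27174570, and HOXA13 is at chr7:27200042-27200341. Capitals mark matches, on either strand, of TATAAA, the TATA box core, of CCAAT, the CCAAT box, and of TGATNNAT, a composite site of HOX and PBX proteins.
HOXA10 first start: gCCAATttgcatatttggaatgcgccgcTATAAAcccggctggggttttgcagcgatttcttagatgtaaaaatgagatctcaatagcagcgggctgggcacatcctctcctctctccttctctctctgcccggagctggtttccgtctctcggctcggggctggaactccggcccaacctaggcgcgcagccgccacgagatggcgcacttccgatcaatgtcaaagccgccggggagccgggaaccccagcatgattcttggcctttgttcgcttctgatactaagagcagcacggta
HOXA10 second start: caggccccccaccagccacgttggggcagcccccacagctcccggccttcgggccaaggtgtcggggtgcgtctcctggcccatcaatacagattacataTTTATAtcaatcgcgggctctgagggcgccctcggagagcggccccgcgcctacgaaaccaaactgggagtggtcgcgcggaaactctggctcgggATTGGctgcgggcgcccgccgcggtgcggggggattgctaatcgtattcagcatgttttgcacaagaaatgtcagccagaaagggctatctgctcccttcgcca
HOXA13: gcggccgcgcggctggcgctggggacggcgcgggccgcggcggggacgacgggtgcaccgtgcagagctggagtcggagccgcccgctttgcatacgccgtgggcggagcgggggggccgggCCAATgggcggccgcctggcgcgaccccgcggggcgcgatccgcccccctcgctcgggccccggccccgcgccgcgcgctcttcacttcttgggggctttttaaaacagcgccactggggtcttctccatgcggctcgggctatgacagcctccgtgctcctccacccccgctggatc

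Both HOXA10 windows hold 1 match of TATAAA and 1 of CCAAT, and the HOXA13 window holds 1 of CCAAT and none of the other 2 motifs. Of 35116 promoter windows of the same length, 11.5% hold TATAAA, 34.6% hold CCAAT and 7.4% hold TGATNNAT. Among the 27 windows found for 20 of the 39 members, 5, 18 and 3 hold them. The CG dinucleotide occurs 21 and 25 times in the HOXA10 windows and 44 times in that of HOXA13, against a median of 14 over all windows and 22 over the HOX windows. HOXA13, with 0 counts, thus has the most CG dinucleotides of the 27. A match describes the letters and not a bound site.

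HOXA3 and HOXA4 made up most of the rest of the HOXA signal. HOXA3, which patterns the pharyngeal arches and the hindbrain, had 41, 35 and 26 counts. The count was lowest with siPRMT6-2, at 0.741 of siNC (0.435 to 1.24), against 0.888 with siPRMT6-1 (0.549 to 1.43), and both intervals include 1. HOXA4 had 12, 13 and 11 counts, 1.13 and 1.07 times siNC (0.474 to 2.7 and 0.428 to 2.65). Both overlap HOXA-AS2 on the other strand, HOXA3 by 84 exon bases and HOXA4 by 254. HOXA5, whose loss disturbs lung and mammary development, had 1, 4 and 4 counts. HOXA2 and HOXA6 had at most 3 in any library, and HOXA7 had 0 in all 3. In sum the HOXA cluster had 124, 119 and 109 counts, at a ratio to siNC of 0.999 for siPRMT6-1 (0.770 to 1.29) and of 1.03 for siPRMT6-2 (0.787 to 1.34). HOXA10 alone gave 52.3% of it. Without members overlapped by an opposite-strand gene, 6 HOXA genes remain with 6, 10 and 13 counts, 1.73 times siNC (0.571 to 5.81) and 2.53 times (0.898 to 8.13).

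HOXB genes were counted mostly at the anterior end of their cluster. HOXB2, a hindbrain segment gene on chromosome 17 at 48542656 to 48545031 (minus strand), had 62, 55 and 56 counts. Per kilobase of exon that is 38.7 counts in siNC, the highest level of all members and above the 20.4 of HOXA10. Its level stood at a ratio to siNC of 0.923 for siPRMT6-1 (0.630 to 1.35) and of 1.06 for siPRMT6-2 (0.722 to 1.54). The log2 fold change was -0.016 with an SE of 0.45 and an adjusted p of 1.00 in the quasi-likelihood test. No opposite-strand gene shares its exon bases in the deposited models, but in GENCODE release 29 HOXB-AS1 overlaps it by 87 bases. As for HOXA10, the 3 libraries overlap.

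HOXB3, active in the hindbrain and in blood progenitors, had 34, 34 and 28 counts, at a ratio to siNC of 1.04 for siPRMT6-1 (0.628 to 1.73) and of 0.963 for siPRMT6-2 (0.562 to 1.64). HOXB4, which promotes the self-renewal of blood stem cells, showed the widest gap of the 6 tested members. It had 6, 13 and 7 counts, at a ratio to siNC of 2.25 for siPRMT6-1 (0.800 to 7.23) and of 1.36 for siPRMT6-2 (0.393 to 4.91). Its log2 fold change was 0.85 with an SE of 0.85 and an adjusted p of 1.00 in the quasi-likelihood test. The siPRMT6-1 library is the high one, and its interval reaches below 1, so the difference was within counting error. Neither the deposited models nor GENCODE place an opposite-strand exon on HOXB4.

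The middle and posterior HOXB genes had few counts. HOXB7 had 7, 7 and 9, HOXB9 had 7, 4 and 7, and HOXB6 had 5, 4 and 3. HOXB5 had 0, 1 and 2, HOXB8 and HOXB13 had 1 count in a single library each, and HOXB1 had 0 in all 3. The whole cluster summed to 122, 119 and 112 counts, at a ratio to siNC of 1.01 for siPRMT6-1 (0.782 to 1.32) and of 1.07 for siPRMT6-2 (0.823 to 1.40). Without members overlapped by an opposite-strand gene in the deposited models, 83, 80 and 79 counts remained, 1.00 and 1.11 times siNC (0.728 to 1.38 and 0.807 to 1.53). HOXB2 gave 71.5% of this remainder, and HOXB-AS1 overlaps it in GENCODE.

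**Figure D1:**
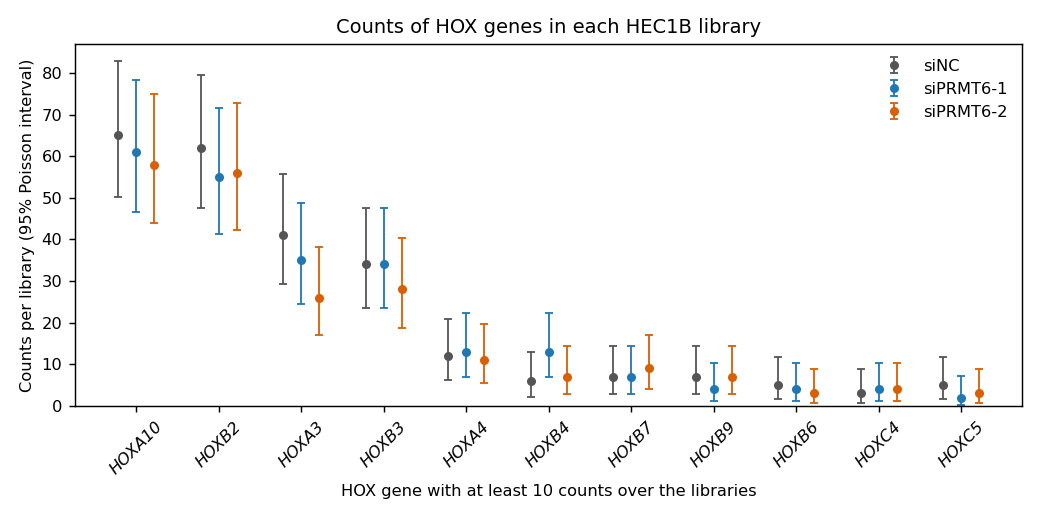
Counts (vertical axis, per library) of the 11 HOX genes with at least 10 counts over the libraries (horizontal axis, in order of total counts). Points are the siNC, siPRMT6-1 and siPRMT6-2 libraries and bars are 95% exact Poisson intervals; the intervals of the 3 libraries overlap for each gene, and HOXA10 and HOXB2 lie between 55 and 65 counts.

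The HOXC and HOXD clusters had few counts in every library. HOXC genes summed to 19, 12 and 12 counts, 0.657 times siNC (0.291 to 1.43) and 0.738 times (0.327 to 1.60). HOXC4, with 3, 4 and 4 counts, HOXC5, with 5, 2 and 3, and HOXC6, with 2, 5 and 2, share 563 exon bases on the same strand, and a fragment there was added to all 3 genes. Without these genes, HOXC8 to HOXC13 had 9, 1 and 3 counts, at a ratio to siNC of 0.116 for siPRMT6-1 (0.00264 to 0.835) and of 0.390 for siPRMT6-2 (0.0679 to 1.56). The siPRMT6-1 interval lies below 1, while the siPRMT6-2 interval does not. No HOXC gene of that end had more than 3 counts in a library, so the value rests on very few fragments.

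HOXD genes summed to 3, 5 and 4 counts. HOXD1 had 1, 3 and 1 and HOXD8 had 2, 2 and 1, while HOXD11 and HOXD13 had 1 count in siPRMT6-2 alone. HOXD3, HOXD4, HOXD9, HOXD10 and HOXD12 had 0 in all 3 libraries. With sums this small, ratios of 1.73 (0.338 to 11.2) and 1.56 (0.264 to 10.6) leave differences of several-fold undetectable. All told, 9 members had 0 counts in every library, 19 had 1 to 9 counts over the 3, and 11 had at least 10. The number of members with any count was 24 in siNC, 22 in siPRMT6-1 and 25 in siPRMT6-2. The genes that were at 0 in siNC and had counts with a siRNA were 3 with siPRMT6-1 and 5 with siPRMT6-2, and the reverse held for 5 and 4.

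Grouped along the body axis instead of by cluster, the members gave the same picture. The anterior paralogue groups 1 to 3, of 8 genes, had 142, 131 and 115 counts, at a ratio to siNC of 0.960 for siPRMT6-1 (0.751 to 1.23) and of 0.947 for siPRMT6-2 (0.734 to 1.22). The central groups 4 to 8, of 15 genes, had 44, 56 and 47, 1.32 and 1.25 times siNC (0.877 to 2.01 and 0.810 to 1.93). The posterior groups 9 to 13, of 16 genes, had 82, 68 and 75, of which HOXA10 gave 81.8%, at 0.863 and 1.07 times siNC (0.616 to 1.21 and 0.771 to 1.48). All 6 intervals include 1.

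**Figure D2:**
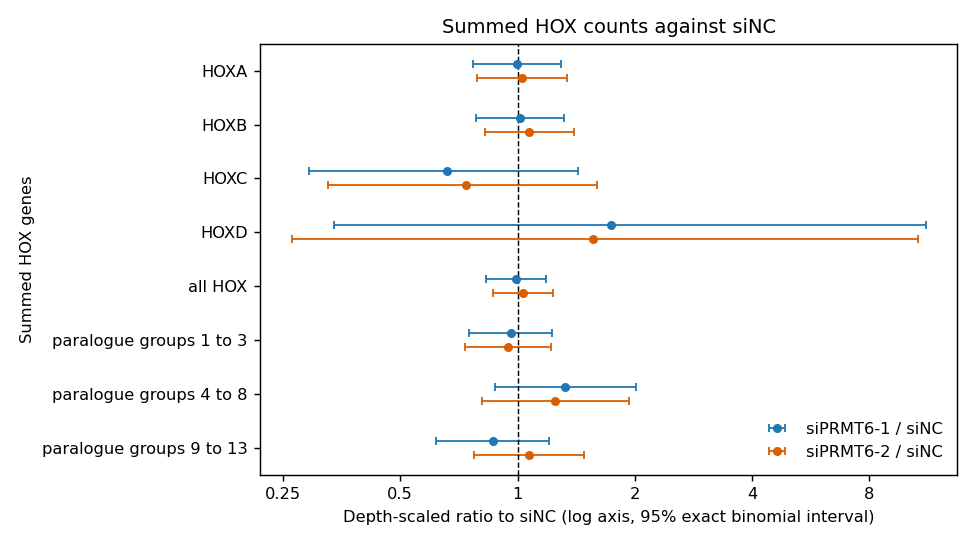
Depth-scaled ratio to siNC (horizontal log axis) of the summed counts of each HOX cluster, of all 39 genes and of 3 ranges of paralogue groups (vertical axis). Points are siPRMT6-1 and siPRMT6-2 and bars are 95% exact binomial intervals, which all cross 1; the HOXA and HOXB points lie between 0.999 and 1.07.

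Fold changes of single members were read against all genes. Of the 6 tested members, 0 had a fold of 2 or more with siPRMT6-1, where 4.89% of 6803 genes were higher and 4.38% lower, and 0 with siPRMT6-2, where 8.16% were higher and 5.38% lower. This fold is on the log2 CPM scale with a prior count of 2, where HOXB4, at a plain ratio of 2.25 with siPRMT6-1, stands at 0.95. The interval of the ratio excluded 1 for 0 of the 6 with either siRNA. Over all genes it did so for 5.89% higher and 7.14% lower with siPRMT6-1, and for 9.73% higher and 8.82% lower with siPRMT6-2. A count of 0 among 6 members does not separate them from shares of this size. Both siRNAs share their only control. The libraries siPRMT6-2 and siPRMT6-1 had a ratio of 1.04 to each other in the HOX sum (0.871 to 1.25).

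The members share the homeobox, which codes for the DNA-binding domain. A stretch of 39 bases coding for its recognition helix was found by a search of GENCODE release 29 coding transcripts in all 39 members. It is printed for HOXB2 and for the 3 tested HOXA genes, to show how far paralogues differ where they are most alike. Capitals mark bases that differ from HOXA10.
HOXA10: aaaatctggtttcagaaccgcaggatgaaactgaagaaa
HOXB2: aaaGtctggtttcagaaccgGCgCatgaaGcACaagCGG
HOXA3: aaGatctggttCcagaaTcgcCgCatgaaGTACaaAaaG
HOXA4: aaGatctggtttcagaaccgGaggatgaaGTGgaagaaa

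Over all members 28 to 37 of the 39 bases matched HOXA10, with a median of 31. HOXA10 and HOXA9, neighbours on the chromosome, match at 36 of 39 bases and had 184 and 5 counts over the 3 libraries.

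MicroRNA genes lie between the HOX genes and some of them target HOX messengers. MIR196B, between HOXA9 and HOXA10, had 9, 8 and 8 counts, 0.925 times siNC (0.311 to 2.7) and 1.04 times (0.349 to 3.03). The gene is 84 bases long and lies wholly within an exon of HOXA10-AS on the other strand. A count in it can come from any longer RNA that crosses it, and not only from the precursor. MIR196A1, MIR196A2, MIR10A, MIR10B and MIR615 had 0 in all 3 libraries. Mature sequences from RefSeq (GRCh38.p14) are shown for the counted gene and for MIR196A and MIR10A products, with the seed, bases 2 to 8, in capitals.
miR-196b-5p: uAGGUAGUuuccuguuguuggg
miR-196a-5p: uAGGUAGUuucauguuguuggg
miR-10a-5p: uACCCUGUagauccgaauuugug

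The 2 miR-196 sequences share the seed AGGUAGU, and miR-10a has another. Among them, the locus of miR-196b in the HOXA cluster was the only one with counts.

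RNA genes on the strand opposite to the HOX genes had a similar number of counts to the members themselves and more per kilobase. The 15 such genes summed to 231, 237 and 222 counts, 1.07 times siNC (0.887 to 1.28) and 1.12 times (0.930 to 1.36). In siNC this is 8.68 counts per kilobase of exon, against 3.37 for the 39 HOX genes. HOXA10-AS had 75, 72 and 79 counts, 64.6 per kilobase in siNC where HOXA10 had 20.4, and the pair shares 608 exon bases. HOXB-AS1 had 50, 41 and 53 counts, 62.7 per kilobase in siNC where HOXB3 had 9.40. The most counted opposite-strand gene thus lies beside HOXA10 in the HOXA cluster and beside HOXB2 and HOXB3 in the HOXB cluster. These are counts as assigned by strand, and gene totals cannot tell which strand the RNA came from. They therefore do not show that antisense RNA exceeded HOX messenger RNA.

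HOXA-AS3 and HOXB-AS3 each had 1 interval that excluded 1, HOXA-AS3 against siNC and HOXB-AS3 between the siRNA libraries. Such intervals were common: over all 6803 genes 9.73% lay above 1 for siPRMT6-2 against siNC, and 9.61% lay below 1 and 11.3% above it for siPRMT6-2 against siPRMT6-1. HOXA-AS3, which shares 1504 exon bases with HOXA7, had 15, 19 and 26 counts, at a ratio to siNC of 1.32 for siPRMT6-1 (0.635 to 2.79) and of 2.03 for siPRMT6-2 (1.03 to 4.11). Between the siRNA libraries its ratio was 1.54 (0.818 to 2.94), and HOXA7 itself had 0 counts. HOXB-AS3, which shares exon bases with HOXB5 and HOXB6, had 49, 51 and 27, at a ratio to siNC of 1.08 for siPRMT6-1 (0.717 to 1.64) and of 0.644 for siPRMT6-2 (0.387 to 1.05). Its siPRMT6-2 level was 0.595 of that with siPRMT6-1 (0.359 to 0.966). HOXA-AS2 had 26, 37 and 25 counts. The opposite-strand genes of the HOXA cluster together had 116, 129 and 132 counts. Their ratio to siNC was 1.16 for siPRMT6-1 (0.894 to 1.5) and 1.33 for siPRMT6-2 (1.03 to 1.72), the latter interval also above 1. Those of HOXB had 99, 92 and 80, 0.967 and 0.945 times siNC (0.720 to 1.30 and 0.695 to 1.28). Of the 27 genes listed as cluster RNA genes and found in the count table, not all of them noncoding, 5 were tested. Among the tested genes 0 were called or reached an unadjusted p under 0.05 in edgeR or DESeq2. The edgeR background at that level was 2.03% higher and 0.706% lower. HOXC13-AS had 10, 5 and 3 counts and HOXC-AS3 had 3, 7 and 3. HOTAIR, the HOXC antisense RNA known from cancer, had 1 count, in siPRMT6-1, and HOTTIP, at the HOXA13 end, had 0.

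**Figure D3:**
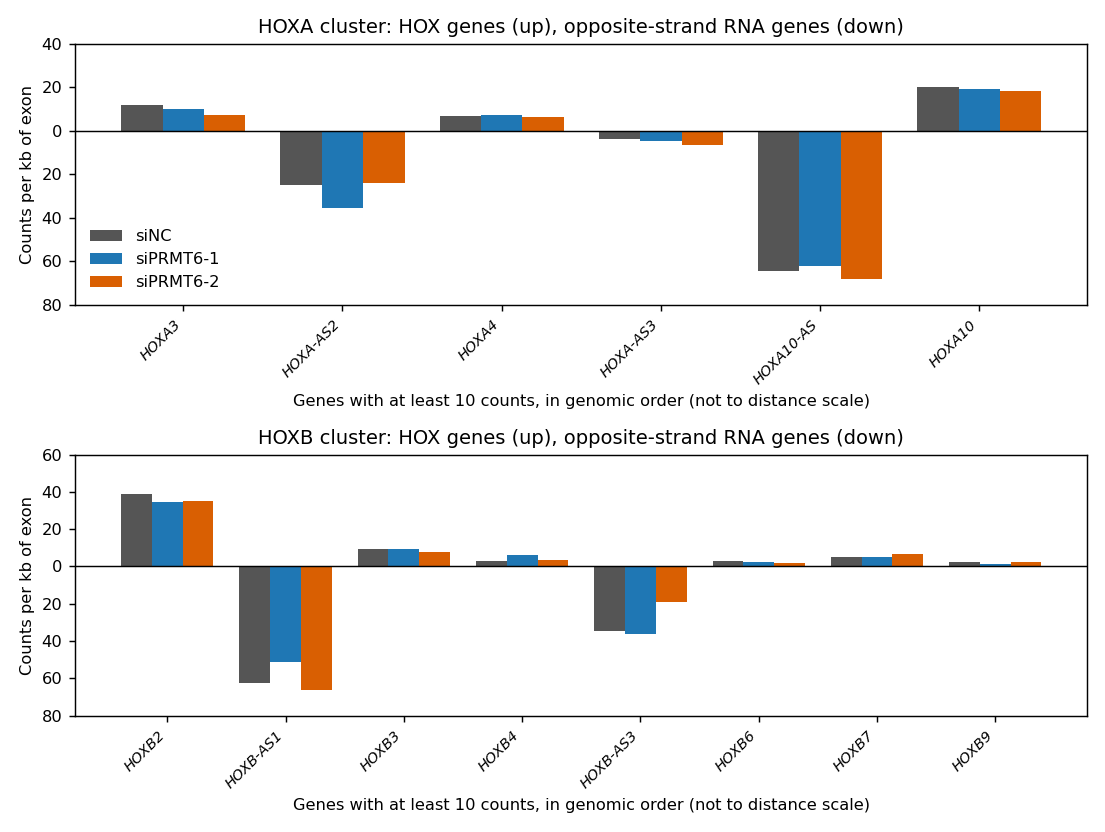
Counts per kilobase of exon (vertical axis) of the HOXA and HOXB cluster genes with at least 10 counts over the libraries, in genomic order (horizontal axis), with HOX genes upward and opposite-strand RNA genes downward. Bars are the siNC, siPRMT6-1 and siPRMT6-2 libraries; HOXA10 (20.4 in siNC) stands beside HOXA10-AS (64.6), and HOXB2 (38.7) beside HOXB-AS1 (62.7).

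HOX proteins bind DNA together with TALE homeodomain proteins, the PBX, MEIS and PKNOX families, and 2 of these genes had wider gaps between libraries than the 6 tested HOX genes. PBX2 had 8, 27 and 27 counts. That is a ratio to siNC of 3.51 for siPRMT6-1 (1.55 to 8.95) and of 3.94 for siPRMT6-2 (1.74 to 10.05). MEIS2 had 5, 22 and 22, 4.58 times siNC (1.69 to 15.5) and 5.14 times (1.90 to 17.4). For both genes the siNC library is the low one and the siRNA libraries have equal counts, with a ratio between them of 1.12 (0.634 to 1.99 for PBX2, 0.593 to 2.13 for MEIS2).

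Neither gene passed the test over all genes. In edgeR's quasi-likelihood test PBX2 had a log2 fold change of 1.88 (SE 0.63, unadjusted p = 0.0104, adjusted p = 1.00) and MEIS2 of 2.25 (SE 0.72, unadjusted p = 0.00729, adjusted p = 1.00). Of the 11 TALE genes 4 were tested and 0 called by edgeR or by DESeq2, and these 2 were the ones with an unadjusted p under 0.05 in edgeR, where the background was 2.03% higher. DESeq2 gave 0 at that level. Their intervals lay above 1 with both siRNAs, as did those of 1.25% of all 6803 genes, but both ratios use the same siNC count. In GENCODE an antisense RNA gene shares 431 exon bases with MEIS2, and the deposited model of PBX2 also spans alternate sequences of chromosome 6. TGIF1, a repressor of the family, had 46, 29 and 30 counts, 0.656 times siNC (0.397 to 1.07) and 0.762 times (0.465 to 1.23). PBX3 had 3, 2 and 4 counts, and MEIS1, a usual partner of HOXA9 and HOXA10, at most 1. Over the 4 tested TALE genes the log2 fold change had a median of 1.01, beside 0.036 over all genes.

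**Figure D4:**
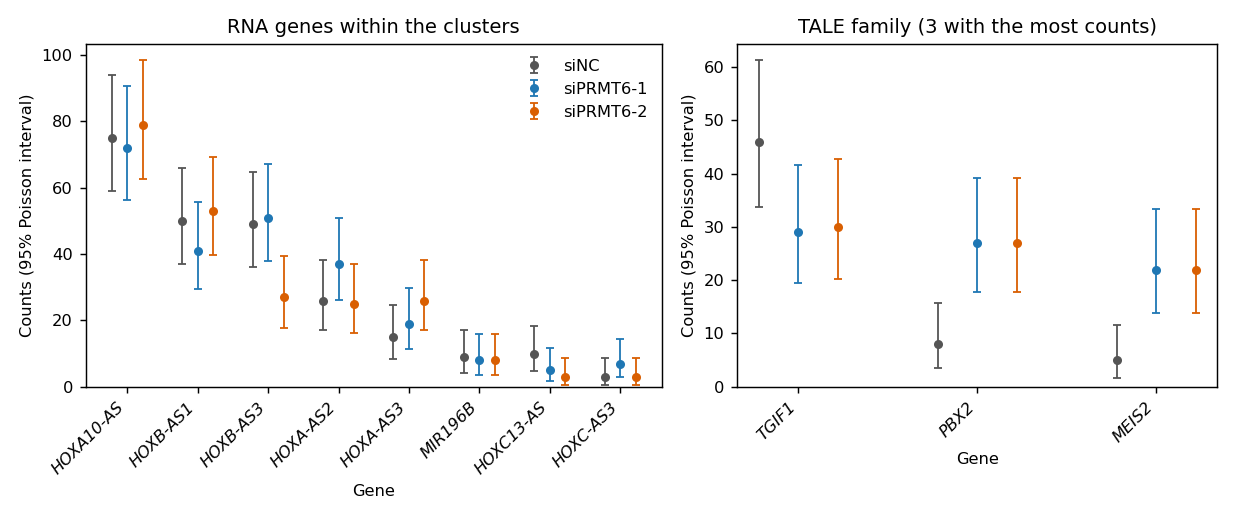
Counts (vertical axes, per library) of the RNA genes within the clusters with at least 10 counts over the libraries (left) and of the 3 TALE family genes with the most counts (right). Points are the siNC, siPRMT6-1 and siPRMT6-2 libraries and bars are 95% exact Poisson intervals; PBX2 (8, 27 and 27) and MEIS2 (5, 22 and 22) are lower in siNC, and HOXB-AS3 is lowest in siPRMT6-2 (27).

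None of the tested Polycomb or trithorax genes, the regulators that hold HOX genes off or on, passed the test. Of all 6803 genes 0 passed it. For these lists and those below, the unadjusted background in edgeR was 2.03% higher and 0.706% lower. A count of 0 in a short list does not separate it from shares of this size. Among 29 Polycomb genes 15 were tested, with 0 called by edgeR or DESeq2, 0 at an unadjusted p under 0.05 and a median log2 fold change of -0.10 (0.036 for all genes). PHC1, a subunit of the first Polycomb complex, had 115, 111 and 154 counts, 1.00 times siNC (0.767 to 1.3) and 1.565 times (1.22 to 2.01). It shares 1104 exon bases with M6PR on the other strand. RBBP4, a histone binder of the second complex, had 71, 63 and 55. CBX6, a reader of the Polycomb mark, had 92, 58 and 45 counts, 0.656 times siNC (0.464 to 0.921) and 0.572 times (0.391 to 0.825). It was the 1 tested Polycomb gene whose interval lay below 1 with both siRNAs, where the background was 2.16%.

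Trithorax genes had a median log2 fold change of 0.31 over 14 tested of 18, with 0 called and 0 at an unadjusted p under 0.05 in edgeR or DESeq2. HCFC1 had 137, 162 and 109 counts, the lysine methyltransferase gene KMT2D 54, 45 and 77, and SETD1A 58, 53 and 55. KMT2D was at a ratio to siNC of 0.867 for siPRMT6-1 (0.571 to 1.31) and of 1.67 for siPRMT6-2 (1.16 to 2.41). KMT2A, the methyltransferase best known for HOX activation, was outside the naming rule and had 28, 40 and 36 counts.

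Retinoid signalling genes, whose ligand induces HOX genes in development, had a median of -0.10 over 8 tested of 19, with 0 called and 0 at an unadjusted p under 0.05 in edgeR or DESeq2. The receptor gene RXRA had 38, 40 and 35 counts, ALDH1A3 27, 21 and 16, and RXRB 22, 18 and 13. Genes of Müllerian duct development had a median of -0.11 over 9 tested of 16, with 0 called by edgeR or DESeq2. IGFBP1, a marker of decidual endometrium, was the 1 gene of that list at an unadjusted p under 0.05 in edgeR, where the background was 2.03% higher, with 3, 9 and 29 counts. PAX8, a Müllerian lineage factor, was at a ratio to siNC of 0.771 for siPRMT6-1 (0.601 to 0.985) and of 1.68 for siPRMT6-2 (1.36 to 2.07). The HOXA10 target ITGB3, an integrin gene, had 74, 45 and 55 counts, 0.633 times siNC (0.427 to 0.929) and 0.869 times (0.60 to 1.25). PAX2 had 43, 40 and 22, 0.968 times siNC (0.613 to 1.52) and 0.598 times (0.341 to 1.02). EMX2, which HOXA10 represses in endometrium, had 0, 1 and 1.

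Homeobox genes outside the clusters served as a comparison group of the same class. Of 32 such genes 15 were tested, with 0 called by edgeR or DESeq2, 0 at an unadjusted p under 0.05 and a median of -0.07. Summed, they had 343, 329 and 293, 0.998 times siNC (0.856 to 1.16) and 0.999 times (0.852 to 1.17), close to the ratios of the HOX sum. GBX2 had 61, 44 and 32 counts, 0.751 times siNC (0.50 to 1.12) and 0.613 times (0.387 to 0.956). ADNP had 20, 35 and 30, 1.82 times siNC (1.02 to 3.33) and 1.75 times (0.963 to 3.26). Beyond the cluster ends, CBX5, near HOXC, had 31, 66 and 17 counts, at a ratio to siNC of 2.22 for siPRMT6-1 (1.43 to 3.51) and of 0.641 for siPRMT6-2 (0.333 to 1.19). The other 10 border genes had at most 5 counts in a library.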

How the data were processed

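RNA of 3 HEC1B libraries was counted per gene. The deposited values are whole-number counts with no normalization. Per the submitters' processing notes the authors used STAR 2.7.8a, hg38 and featureCounts 2.0.10, the last as version 2.0.1 in the file header. Per the file headers, exons were grouped by gene name, the strand setting was 1, fragments in several genes were added to each, and the inputs were named as UMI-deduplicated. Columns were matched to samples by description, in which siPRMT6-1 is si2 and siPRMT6-2 is si3.

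Counts were tested with edgeR 4.0.16 in R 4.3.3 (TMM, filterByExpr with a minimum count of 10 and a minimum total of 15, quasi-likelihood F-test, 1 residual degree of freedom, Benjamini-Hochberg over 6803 genes). The single siNC library has no spread of its own in this fit. The fit takes the spread from the knockdown pair, whose libraries carry different siRNAs, and moderates it with values shared over all tested genes. Standard errors and p-values therefore rest largely on the other genes. DESeq2 1.42.0 and the other alternatives are given at the end. The test was also run on simulated data, which does not show that it could call a change in these libraries. Here it called 0 of 6803 genes. Among those not called were PRMT6, with 25, 4 and 7 counts, and the interferon-stimulated gene IFI6, with 0, 0 and 330. That no HOX gene was called therefore does not show that HOX genes were unchanged. Ratios carry exact binomial and counts exact Poisson intervals at 95%. Named were members and cluster RNA or border genes with at least 10 counts in all, and of other lists the 3 genes with the most counts. Genes named beyond this rule, such as KMT2A, EMX2, PBX3 and IGFBP1, were chosen after their values were seen. Some genes and sequences are not reported here. Members and lists were chosen with earlier results of these data known.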

Additional observations from a re-analysis of the deposited data

How the results depend on the processing

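Of 151 recomputed values 136 kept their direction, call or size. The number of HOX genes called was 0 in each of the 6 other fits. Refitting without genes that have opposite-strand exons in the deposited models left 2 tested members, with a median log2 fold change of 0.39. They are HOXB2 at -0.050 and HOXB4 at 0.82, and HOXB4 had enough counts for the test through siPRMT6-1 alone. Leaving out a knockdown library gave medians from 0.011 to 0.067, values with no test. Directions of values near 0 turned: HOXA10 was -0.013 and HOXB3 -0.023 with no filter on low counts, and leaving out a knockdown library gave -0.033 to 0.059 for HOXA10, -0.11 to 0.076 for HOXB2 and -0.052 to 0.054 for HOXB3. With no filter, 2 members had a fold of 2 or more with siPRMT6-1 (HOXA5 and HOXC9) and 3 with siPRMT6-2 (HOXA5, HOXA9 and HOXB5), each with at most 4 counts in a library. A prior count of 0.5 gave 1 with siPRMT6-1, HOXB4. Of 75 sum ratios 70 moved by less than their interval. Without members that have opposite-strand exons HOXA was 1.73 times siNC with siPRMT6-1, 2.53 with siPRMT6-2, and 1.46 between the siRNA libraries. Without members that share same-strand exons HOXC was 0.116 with siPRMT6-1 and 3.37 between the siRNA libraries. These rest on sums of at most 13 counts. No paired analysis was possible because the control group holds 1 library. Depth limits single members: below about 10 counts only changes of several-fold would show.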
